A study of Triticum aestivum with 18 samples.

Results

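Roots of winter wheat (Triticum aestivum, cultivar Hereward) grown without potassium fertiliser were compared directly with roots grown without magnesium fertiliser. The members were the 3 arrays whose titles name potassium withdrawal and the 3 whose titles name magnesium withdrawal, 6 of the 18 arrays of the series, chosen by those titles and by no measured value. Sampling took place in 2011, at the booting stage, on those plots of the Broadbalk field trial that carry wheat every year. Per the labels' protocols, K and Mg had been withheld since 1843. The other 12 arrays were 3 each from plots low in N (since 1843), without phosphate (since 1843) or without sulfate (since 2000), called low N, low P and low S here, and from a nutrient-replete control plot. They entered the estimate of spread and served as a background, and no control array entered the low K minus low Mg difference itself. All 6 groups share the cultivar, the tissue, the stage and the field. The number of plots behind each group of 3 is not given in the sources used here, so plot and treatment cannot be told apart, and p-values measure only the spread between these samples, which may be that within a plot. In whole roots, fewer cells of a type and less RNA per cell cannot be told apart.

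Potassium is the main osmotic cation of plant cells. It sets turgor and membrane potential, and activates many enzymes in the cytosol. Magnesium sits at the centre of chlorophyll, bridges ribosomal subunits and forms the complex with ATP that most kinases and ATPases use. Plants take up both as cations, so the direct comparison asks how root transcripts differ when the missing cation differs and the long withdrawal, the site and the season are the same.

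The unit is the MAS5 intensity of a probe set, the linear brightness that Affymetrix software summarises from its probes. Array medians were 53.4, 59.7 and 62.2 in low K roots and 68.7, 69.5 and 72.2 in low Mg roots, so the groups did not overlap (exact permutation test, two-sided, p = 0.1, the smallest that 3 against 3 allows). The middle/3' ratio of the sucrose synthase control gene, a measure of how far labelled RNA reached from the 3' end, ran from 0.0569 to 0.0756 in low K and from 0.0905 to 0.108 in low Mg (exact p = 0.1). For G6PDH, 5' over 3' signal was 0.0371 to 0.0516 in low K and 0.0543 to 0.062 in low Mg (exact p = 0.1), while the ubiquitin ratio overlapped, at 1.2 to 1.32 in low K and 1.15 to 1.25 in low Mg. Control arrays spanned both groups, with medians of 53.8, 68.7 and 54.6. The part of these differences in the results was not tested.

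Few transcripts passed the test between the 2 nutrients. Of 34255 tested probe sets, 123 (0.359%) were called, meaning a limma adjusted p under 0.05 over all tested probe sets. Of these, 47 (0.137%) rose and 76 (0.222%) fell in low K relative to low Mg, and 37 of the 123 differed by more than 2-fold. At an unadjusted p under 0.05 there were 5623 (16.4%), and the arrays of the groups did not overlap for 7936 (23.2%), with low K higher in 2989 (8.73%) and lower in 4947 (14.4%). After quantile normalization, which gives every array the same distribution, 53 probe sets (0.155%) were called, 25 higher and 28 lower, and 49 of them were among the 123. With the 15 deficiency arrays alone the count was 517 (250 higher, 267 lower), with only the 6 arrays compared 40 (24 higher, 16 lower), and with 1 of the 6 arrays left out between 9 (without low Mg array 1) and 338 (without low K array 1).

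The direction of a difference depended on brightness. In the dimmest 10% of tested probe sets (median intensity 46.5) the median low K minus low Mg difference was -0.32 log2, and in the brightest 10% (median intensity 6090) it was 0.11 log2. Quantile normalization brought these medians to -0.05 and 0. The brightest 10% held 21 of the 47 rises and 6 of the 76 falls as deposited, against 5 rises and 8 falls after quantile normalization. Centring each array on its 75th percentile gave 73 higher and 27 lower, so the majority direction turned with the scaling. Centring on the array median moved the median of all tested probe sets to 0.2 log2, against -0.06 as deposited. Genes are given below with their quantile-normalized values.

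**Figure D1:**
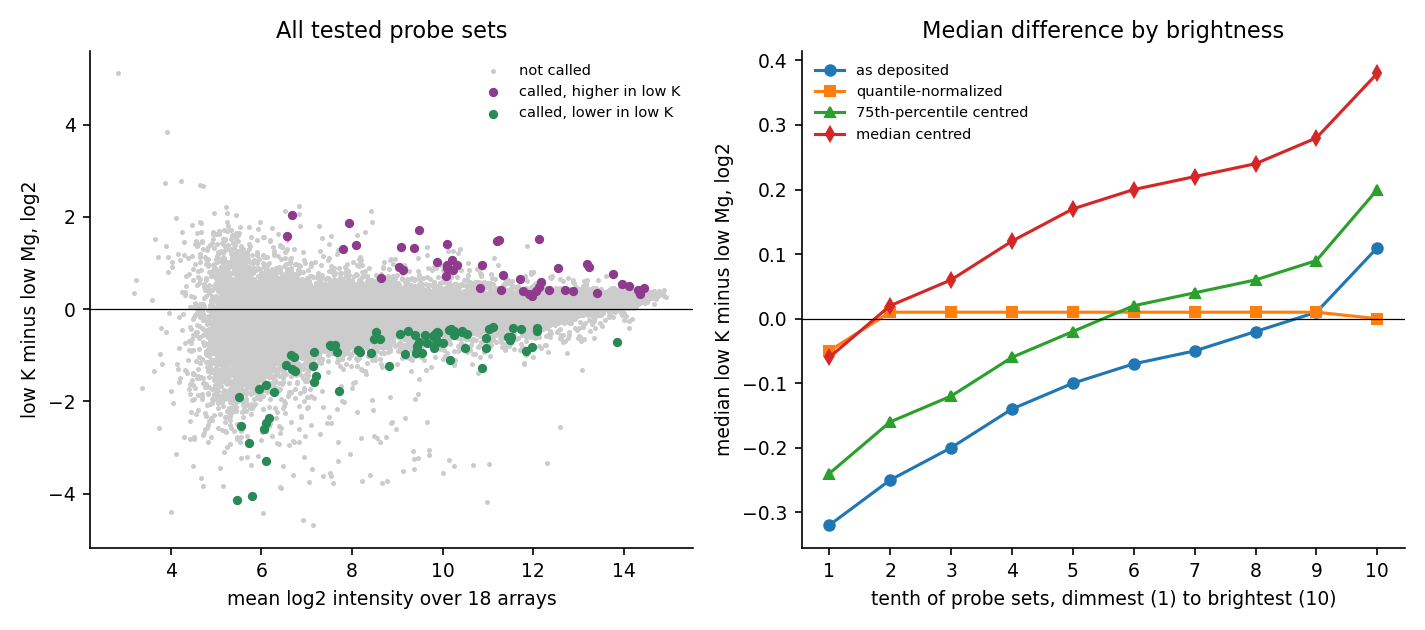
Left, low K minus low Mg log2 difference (vertical) against mean log2 intensity over 18 arrays (horizontal) for all 34255 tested probe sets, with the 47 called higher and 76 called lower in low K coloured. Right, the median difference in each 10% of probe sets from dimmest to brightest under 4 scalings; as deposited it climbs from -0.32 to 0.11, and after quantile normalization it stays between -0.05 and 0.01.

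Gene names were scarce. The platform's annotation gave a gene to 961 of the tested probe sets, and 75 tested genes had a name other than a running LOC number. Of the 123 called probe sets 10 had a gene (8.13%), against 2.81% of all tested probe sets. Of the 75 genes with an informative name, on their brightest probe sets, 2 were called, against 0.359% of all tested probe sets. These were XTH, lower in low K, and FKBP70, higher in low K. The part of brightness in these shares was not tested.

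XTH encodes a xyloglucan endotransglucosylase/hydrolase, an enzyme that cuts and rejoins the xyloglucan chains tying cellulose together in the growing wall. Its intensity was 370.5, 335.5 and 415.8 in low K roots, against 744.2, 713 and 737 in low Mg roots. The low Mg arrays lay within a narrow band and every low K array lay well below it. XTH fell by 0.97 ± 0.19 log2 in low K (SE; limma, adjusted p = 0.0446), a 1.96-fold difference. The control arrays stood at 659.3, 920.7 and 531.6, around the low Mg level, and low K against control gave -0.88 ± 0.19 log2 (limma, adjusted p = 0.0794). XTH averaged 705.6 in low N, 498.3 in low P and 548.7 in low S, so low K had the lowest mean of the series. After quantile normalization the low K minus low Mg difference was -0.90 log2 (limma, adjusted p = 0.0737), and after 75th-percentile centring the adjusted p from limma was 0.0516.

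FKBP70 encodes a large FK506-binding protein of the peptidyl-prolyl isomerase family, which works with heat shock proteins in folding. It read 9020, 8854 and 8880 in low K and 6648, 6755 and 7062 in low Mg. The groups were far apart relative to their spread, although the difference itself was modest at 1.31-fold (0.39 ± 0.07 log2, SE; limma, adjusted p = 0.0288). Here the control (8489, 7961 and 8477) lay nearer to low K, and low Mg minus control was -0.28 ± 0.07 log2 (limma, adjusted p = 0.227). FKBP70 averaged 9188 in low N, 6017 in low P and 6643 in low S, so the groups split into low K, low N and control above and low Mg, low P and low S below. Array medians also differed between these sides, at 60.3 to 61.3 in low N, 69.2 to 70 in low P and 65.4 to 72.6 in low S. Control array 2, at 68.7, was an exception. The part of the array medians in this split was not tested. The gene is bright, and quantile normalization reduced the difference to 0.25 log2 (limma, adjusted p = 0.129).

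The clearest rises with a gene were 2 genes listed under running numbers only, for which the tables used here give no product. LOC543226 stood at 2100, 2307 and 3162 in low K, against 864.4, 786.2 and 625.2 in low Mg. All 3 low K arrays lay above every other array of the series, of which the highest was 947.3. It rose by 1.72 ± 0.29 log2, a 3.3-fold difference (limma, adjusted p = 0.024), and by 1.73 log2 after quantile normalization (limma, adjusted p = 0.0311). LOC606346 read 1524, 1637 and 1579 in low K and 800.4, 711.8 and 447.3 in low Mg, a rise of 1.32 ± 0.19 log2 (limma, adjusted p = 0.00945). Against the control LOC606346 differed by 1.04 log2 in low K (limma, adjusted p = 0.0299) and by -0.28 log2 in low Mg (limma, adjusted p = 0.668). The call of LOC606346 held as deposited whichever of the 6 arrays was left out, and was lost with only the 6 arrays compared (limma, adjusted p = 0.0554) and, after quantile normalization, without low K array 3 (limma, adjusted p = 0.0539). Among the 6 fits on deposited values that left out 1 array, the call of LOC543226 held only without low K array 1, and its adjusted p from limma was 0.0503 to 0.121 in the other 5. The other 7 genes lost their call in at least 5 of the 6 fits, those without low K arrays 2 and 3 and without each low Mg array.

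LOC778392 and LOC543081 were lower in low K. LOC778392 stood at 1547, 1343 and 1326 in low K and 2152, 2150 and 2190 in low Mg, a fall of 0.63 ± 0.10 log2 (limma, adjusted p = 0.0224), and fell by 0.61 log2 after quantile normalization (limma, adjusted p = 0.0281). Its other tested probe set differed by -0.12 log2. LOC543081, a dimmer signal, read 127.2, 118.8 and 163.3 in low K and 325.4, 206.9 and 252 in low Mg (-0.93 ± 0.19 log2; limma, adjusted p = 0.0479), and its adjusted p from limma after quantile normalization was 0.101. Its other tested probe set differed by -0.27 log2, with overlapping groups (limma, adjusted p = 0.818).

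The remaining called genes were among the brightest on the array, LOC542774, LOC543002 and LOC543438. LOC542774 averaged 22870 ± 1010 in low K and 16120 ± 726 in low Mg (SD, n = 3 each; 0.50 ± 0.10 log2, SE). LOC543002 averaged 26610 ± 747 in low K and 19320 ± 1840 in low Mg (0.47 ± 0.09 log2), with 2 of its 3 probe sets called (the other call at 0.54 log2) and the third, a dim one, at -0.28 log2. LOC543438 averaged 25870 ± 2030 in low K and 19420 ± 1640 in low Mg (0.41 ± 0.08 log2), and its other tested probe set, a dim one, differed by -0.06 log2 (limma, adjusted p = 0.948). After quantile normalization these differences were 0.24, 0.18 and 0.12 log2 and none of the 3 was called by limma, with adjusted p from 0.195 to 0.556. The other called probe set of LOC543002 stood at 0.32 log2 after quantile normalization (limma, adjusted p = 0.0712).

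**Figure D2:**
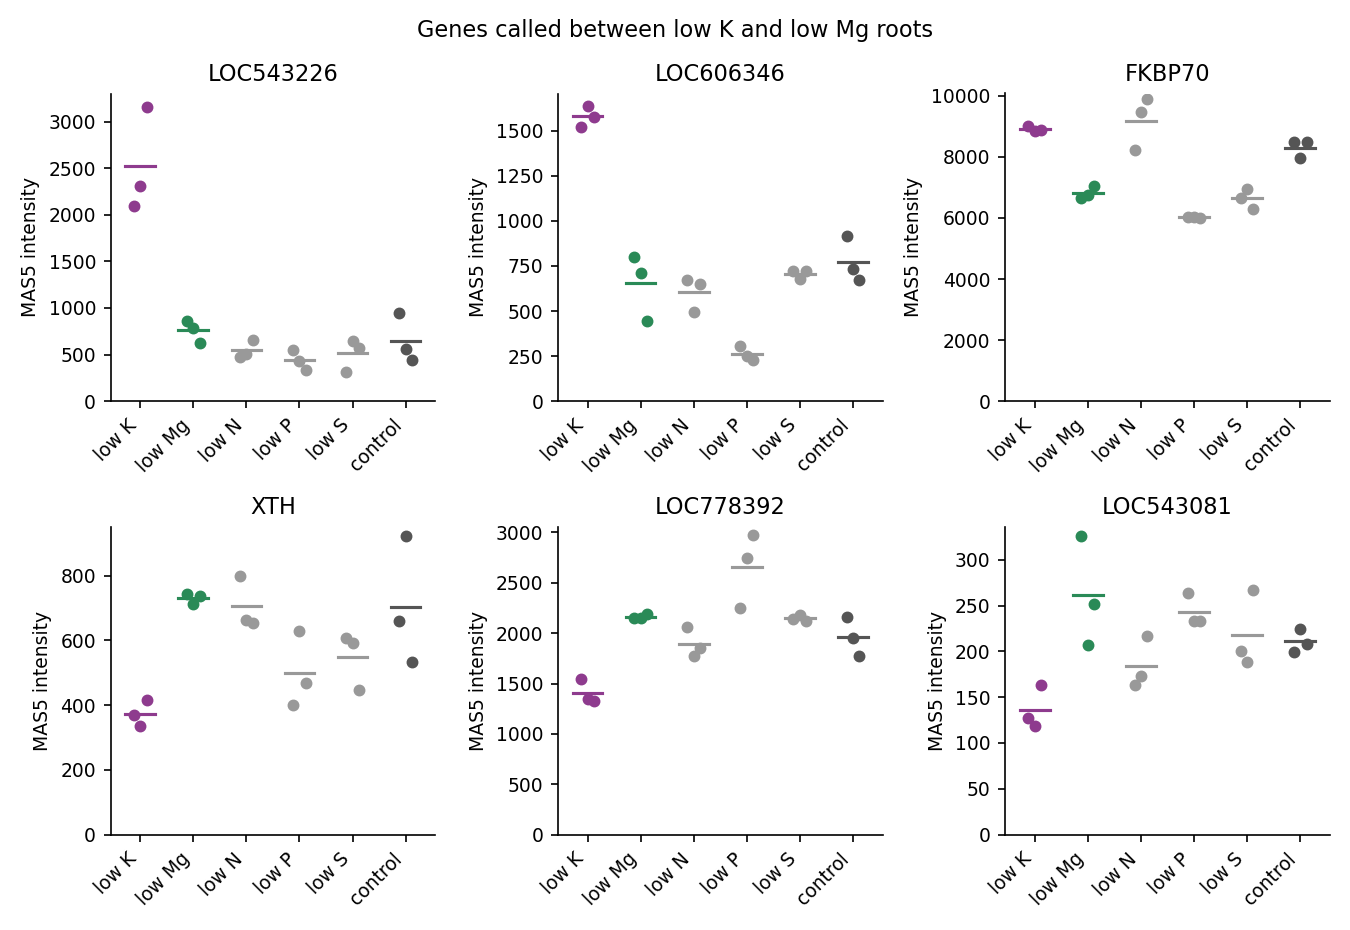
MAS5 intensity (vertical, linear from 0) of 6 called genes in each array, grouped by treatment, with a bar at each group mean (n = 3). LOC543226 and LOC606346 are highest in low K and lie near one another in low Mg and control, XTH and LOC778392 are lowest in low K, and FKBP70 is lower in low Mg than in low K and control.

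Most of the largest differences, like most tested probe sets, had no gene in the annotation, so these probe sets are given by rank. Among called probe sets without a gene whose brighter group averaged at least 200, the 4 largest rises in low K are called rise 1 to rise 4 and the 4 largest falls are called fall 1 to fall 4. Rise 2 read 727, 959.4 and 935.3 in low K, against 217.6, 193.2 and 316.3 in low Mg. It rose 3.66-fold (1.87 ± 0.20 log2, SE; limma, adjusted p = 0.000851) and by 1.95 log2 after quantile normalization (limma, adjusted p = 0.000607). Its means in the other 4 groups were 145 to 198.2, so that low K alone stood out. Rise 1 read 263.4, 521.9 and 722.4 in low K and 101.3, 148.1 and 92.62 in low Mg (2.05 ± 0.30 log2; limma, adjusted p = 0.0122), with a wide spread among the low K arrays. Rise 3 read 261.2, 221.4 and 272.6 in low K and 82.69, 103.5 and 68.23 in low Mg (1.58 ± 0.26 log2; limma, adjusted p = 0.0224). Both held after quantile normalization, with adjusted p from limma of 0.0111 and 0.0125. Rise 4 was the brightest of the 4, at 9689, 13130 and 12720 in low K and 4546, 4065 and 3728 in low Mg (1.52 ± 0.30 log2; limma, adjusted p = 0.0468). Its adjusted p from limma after quantile normalization was 0.0859. Among the 6 fits on deposited values that left out 1 array, rise 2 kept its call in all 6. Rise 1 kept its call in 3 of them, rise 3 in 2 and rise 4 in 1.

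The 4 largest falls ran from -1.78 to -1.28 log2. Fall 1 averaged 123.1 ± 68.3 in low K and 382.4 ± 104 in low Mg, and fall 2 averaged 78.65 ± 22.2 in low K and 235.9 ± 70.9 in low Mg (SD, n = 3 each). Fall 3 averaged 76.26 ± 14.1 in low K and 207.1 ± 29.2 in low Mg. Fall 4 was the brightest of the 4, at 828.6, 1070 and 894.1 in low K and 2070, 1908 and 2845 in low Mg (-1.28 ± 0.24 log2; limma, adjusted p = 0.0385). After quantile normalization fall 2 kept its call (limma, adjusted p = 0.0465) and the other 3 missed it, with adjusted p from limma of 0.0539 to 0.101. In the 6 fits on deposited values that left out 1 array, fall 1 and fall 2 each kept their call in 2. Fall 3 and fall 4 kept it in 0 of the 6.

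Few calls held in every one of these fits. Of the 123, 7 stayed called whichever of the 6 arrays was left out and under quantile and 75th-percentile scaling as well: 3 higher in low K and 4 lower. Over all 18 planned settings, 4 of the 7 stayed called. The 3 higher were rise 2, LOC606346 and a very bright probe set without a gene. That one read 16950, 16910 and 19790 in low K and 9380, 9201 and 9777 in low Mg (0.92 ± 0.12 log2; limma, adjusted p = 0.00725). None of the 4 lower had a gene, and like the bright one they were singled out after their values were seen. The tightest read 602.6, 585 and 557.6 in low K and 1040, 1013 and 1073 in low Mg (-0.84 ± 0.09 log2; limma, adjusted p = 0.00122). Another read 2902, 2286 and 2048 in low K and 4473, 4241 and 4718 in low Mg (-0.91 ± 0.10 log2; limma, adjusted p = 0.00132), and a further one averaged 422.3 ± 57.9 in low K and 816.8 ± 67.8 in low Mg (SD, n = 3 each). The last stood at only a few intensity units in low K, at 3.757, 7.771 and 5.377, against 84.13, 74.14 and 138.7 in low Mg. Its difference of -4.14 ± 0.44 log2 (limma, adjusted p = 0.000851) has no well fixed size, because detection calls were not used here and such values cannot be told from background.

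**Figure D3:**
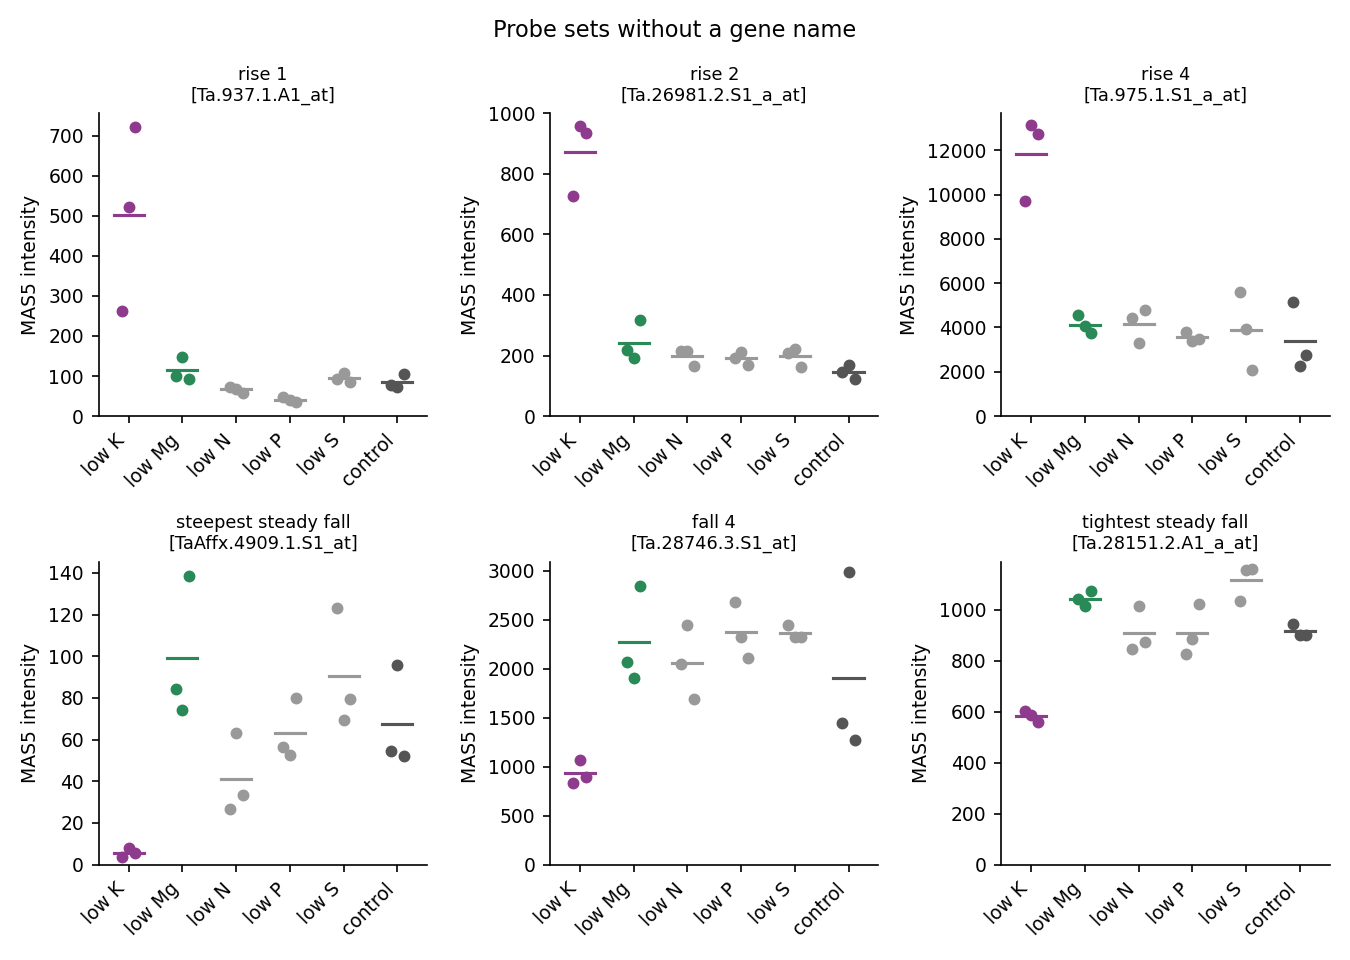
MAS5 intensity (vertical, linear from 0) of 6 probe sets without a gene name in each array, grouped by treatment, with a bar at each group mean (n = 3); the array's own probe set name stands in brackets over each panel. Every low K array lies above all other arrays in rise 1, rise 2 and rise 4, and the steepest steady fall stands at 3.757 to 7.771 in low K and the tightest at 557.6 to 602.6.

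Probe sets that share a number in their name were designed to related sequences, which gives another reading of some calls. Of the 123 called, 62 had another tested probe set with the same number, and 107 of these 119 other probe sets (89.9%) differed in the same direction, against 62.2% of same-number pairs over all tested probe sets. Such pairs can share transcripts, so they are not independent. More than 1 probe set was called for 7 numbers, and for 6 of these the calls had the same direction. The tightest fall had both of its probe sets called lower (-0.84 and -0.6 log2), and rise 4 all 3 of its own called higher (1.47 to 1.52 log2). The highest pair outside the ranked rises stood at 1.34 and 1.41 log2. Probe sets with a suffix for shared transcripts (_x_at, _s_at or _a_at), which in hexaploid wheat can hybridise with copies on the other genomes, made up 40.7% of the called and 29.7% of the tested.

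Low K was the group that stood apart in most calls. In 81 of the 123 called probe sets the low K mean alone lay outside the range of the other 5 group means, in 2 the low Mg mean alone, in 35 both were the extremes and in 5 neither was. For the 47 rises these counts were 40, 0, 6 and 1, and for the 76 falls 41, 2, 29 and 4. Choosing probe sets by a difference between these 2 groups favours their means as extremes, and no share over all tested probe sets is given. Of the 53 called after quantile normalization, the counts were 42, 1, 9 and 1 in the same order. The replete control, which took no part in the contrast, lay nearer to low Mg than to low K in all but 29 of the 123, low N in all but 26, low P in all but 12 and low S in all but 3. On a scale where low Mg is 0 and low K is 1, the median position of the control was 0.32, of low N 0.21, of low S 0.04 and of low P -0.02. Each treatment's own comparison with the control gave 70 called probe sets in low K (0.204%; 48 higher, 22 lower) and 21 in low Mg (0.0613%; 18 higher, 3 lower); these comparisons share the control arrays.

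**Figure D4:**
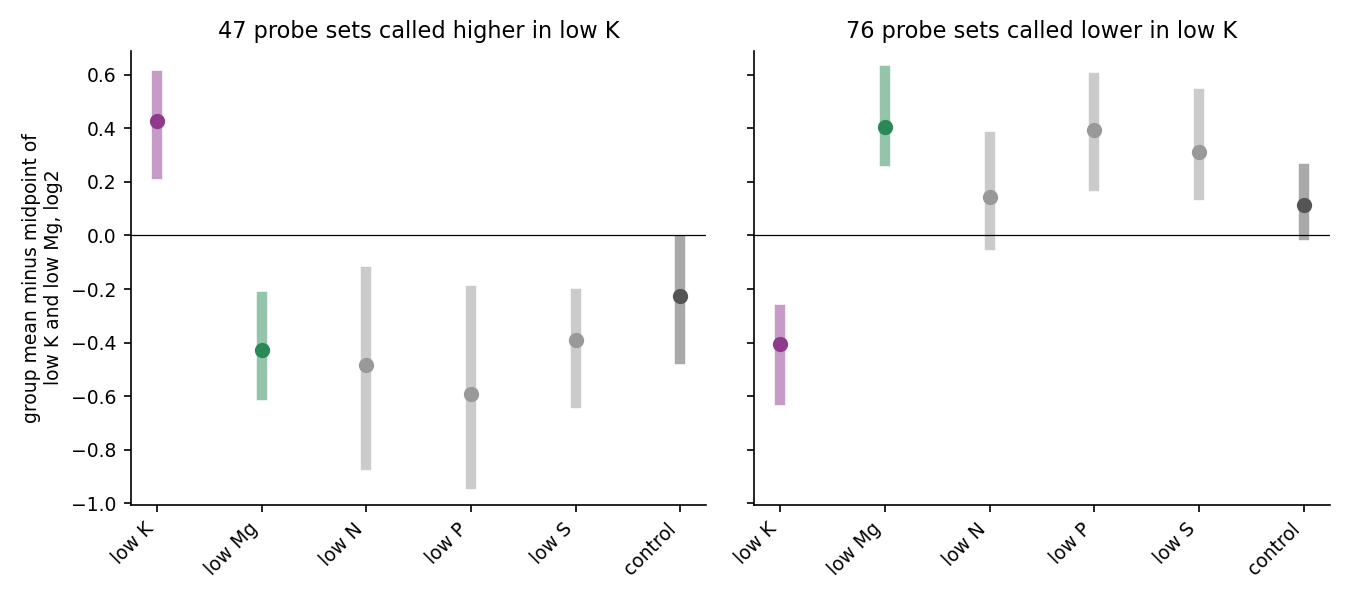
Group mean minus the midpoint of low K and low Mg, in log2 (vertical), for the 47 probe sets called higher in low K (left) and the 76 called lower (right); points are medians over probe sets and bars run from the lower to the upper quartile. The low K and low Mg positions follow from the choice of probe sets; low P and low S sit near low Mg in both panels, with the control between low Mg and the midpoint.

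Named genes of the fixed lists were mostly not called. No gene of the lists for potassium transport, magnesium transport and use, CBL, CIPK and calcium signalling, aquaporins, nitrogen uptake, phosphate starvation, iron and zinc or transcription factors was matched by name. Outside these lists, 1 cation channel gene was tested, TPC1 of the vacuolar 2-pore channels, picked out here after its values were seen. It read 1126, 958 and 966.2 in low K and 1227, 1144 and 1381 in low Mg, groups that did not overlap, and was not called (-0.30 ± 0.12 log2, SE; limma, adjusted p = 0.239; -0.27 log2 after quantile normalization). DMAS1, of the synthesis of iron-binding mugineic acids, at 0 ± 0.10 log2, WZF1, a zinc finger protein, at 0.15 ± 0.18 log2, and ALMT1, a malate channel, at -0.32 ± 0.45 log2 also lay outside the name patterns and were not called (SE; limma, adjusted p of 0.733 or more). Of the 6 tubulin genes, the building blocks of microtubules, 0 were called by limma, against 0.359% of all tested probe sets. Their median was 0.32 log2 as deposited, 0.40 after 75th-percentile centring and 0.04 after quantile normalization, where all tested probe sets had medians of -0.06, 0.02 and 0.01. tubb1, a beta-tubulin, read 27580, 27480 and 27280 in low K and 19840, 20380 and 22020 in low Mg, groups that did not overlap (0.41 ± 0.11 log2; limma, adjusted p = 0.101; 0.11 log2 after quantile normalization). Tubb5, a beta-tubulin of lower intensity, read 3334, 3407 and 3549 in low K and 2437, 3145 and 2697 in low Mg, and its difference of 0.32 log2 (limma, adjusted p = 0.134) was 0.30 log2 after quantile normalization. Tubb5 was thus the tubulin whose value depended least on the scaling.

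Of the 5 histone genes, whose products package DNA, limma called 0, and the median was 0.13 log2 as deposited and 0.03 after quantile normalization. H2A-3 read 5302, 4809 and 5218 in low K and 3344, 3233 and 4399 in low Mg, without overlap (0.49 ± 0.16 log2; limma, adjusted p = 0.149; 0.44 log2 after quantile normalization). H2A-9 averaged 13970 ± 858 in low K and 11170 ± 1070 in low Mg (SD, n = 3 each; limma, adjusted p = 0.223), and H2A-2 stood at -0.25 log2.

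The 3 genes of the methyl cycle and its products did not pass the test either. SAHH, which clears S-adenosylhomocysteine, averaged 39430 ± 2270 in low K and 29860 ± 4060 in low Mg (0.41 ± 0.15 log2; limma, adjusted p = 0.181). COMT1, a methyltransferase of lignin precursors, averaged 32400 ± 1220 in low K and 24890 ± 3740 in low Mg (0.39 ± 0.12 log2; limma, adjusted p = 0.146). After quantile normalization these were 0.06 and 0.08 log2. PEAMT1, which methylates phosphoethanolamine towards choline, went the other way, at 9732, 8519 and 7605 in low K and 9854, 9980 and 12160 in low Mg (-0.31 ± 0.12 log2; limma, adjusted p = 0.213), and its difference was -0.44 log2 after quantile normalization. The plasma membrane proton pump gene ha1, whose product energises the uptake of cations, read 21050, 21950 and 22630 in low K and 15780, 14520 and 18550 in low Mg (0.43 ± 0.14 log2; limma, adjusted p = 0.15; 0.19 log2 after quantile normalization).

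Of the 4 LEA, dehydrin and Em genes, of the kind that accumulate in drying tissue and under abscisic acid, limma called 0 and all 4 stood below 0 as deposited and after quantile normalization, the median being -0.51 log2 under both. Of all 34255 tested probe sets, 13791 stood above 0 as deposited. Of these 4 genes, EMH2 and EM were dim and their groups overlapped, with means of 23.19 for EMH2 in low K and 92.8 in low Mg, and of 37.68 for EM in low K and 55.22 in low Mg. LEA1 read 5175, 2920 and 2903 in low K and 5732, 6192 and 4647 in low Mg, so that low K array 1 lay among the low Mg arrays (-0.64 ± 0.28 log2; limma, adjusted p = 0.271). Of the 4 photosynthesis genes, markers of green tissue, limma called 0, and the median was -0.17 log2. PsbP of the oxygen-evolving complex read 540.6, 495.3 and 307.5 in low K and 458.3, 399.4 and 523.3 in low Mg, and the groups overlapped for the other 3 as well. The plastid gene of the Rubisco large subunit, rbcl, read 25600, 26400 and 23660 in low K and 19920, 20200 and 25130 in low Mg. PsbO averaged 390.4 in low K and 454.6 in low Mg, and petC 222.5 in low K and 270.9 in low Mg. Signal for genes of green tissue was thus present in these root samples, and its part in the other results was not tested. The 4 carbohydrate genes, among them the fructan exohydrolases 1-FEH and 6-FEH, had a median of -0.14 log2 and 0 calls by limma. Of 2 tested genes for grain storage proteins, which are not known to be made in roots, gli-2 averaged 58.64 ± 17.1 in low K and 105.3 ± 6.81 in low Mg (SD, n = 3 each; limma, adjusted p = 0.225), dim in both. The 4 genes of the antioxidant list (PER1, PCS1, GSTZ1 and CAT1) lay between -0.25 and -0.05 log2, and their adjusted p from limma were 0.552 or more. The 4 genes of the defence list and the 6 of the translation list had medians of -0.14 and 0.08 log2 with 0 calls by limma. The medians of the photosynthesis, carbohydrate, antioxidant and defence lists were below 0 as deposited and above 0 after median centring (0.1 to 0.13 log2). The heat shock list held FKBP70 and hsp16.9A, a small heat shock protein at -0.43 log2. Over all 75 genes with an informative name, 23 had an unadjusted p under 0.05, against 16.4% of all tested probe sets. Of the 75, the arrays did not overlap for 17 that were higher and 7 that were lower in low K, against 8.73% and 14.4% of all tested probe sets. These genes stand on their brightest probe sets. The brightest 10% of tested probe sets had a median difference of 0.11 log2 as deposited and 0 after quantile normalization. The part of brightness in these counts was not tested.

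**Figure D5:**
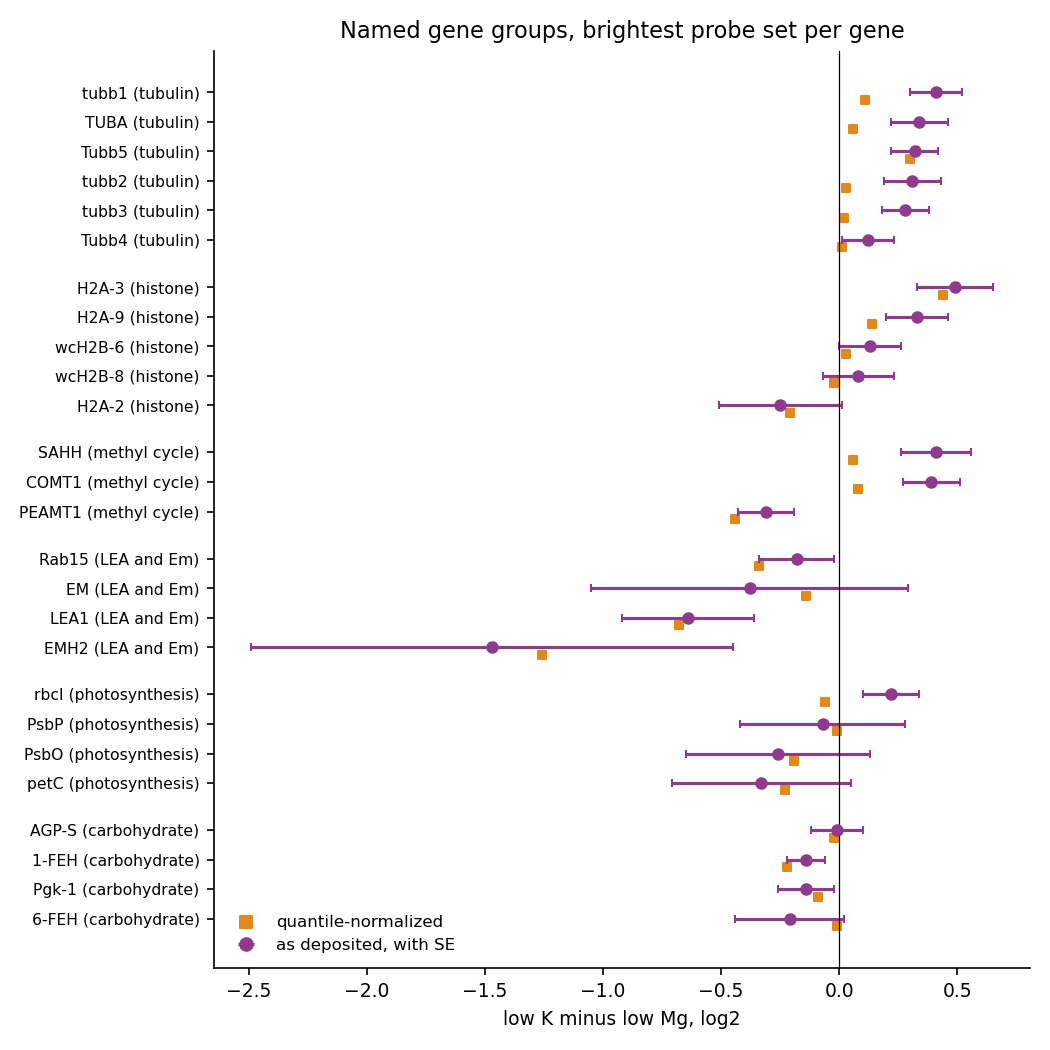
Low K minus low Mg log2 difference (horizontal) of the named genes of 6 groups on their brightest probe sets. Circles with bars are the deposited values ± SE and squares the quantile-normalized values; tubb1, SAHH and COMT1 move from about 0.4 to 0.11 or less, while H2A-3, Tubb5, PEAMT1 and LEA1 change by at most 0.13.

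With the 15 deficiency arrays alone, 517 of the 34255 tested probe sets were called. Of the 75 tested genes with an informative name, 6 were called on at least 1 probe set. These were tubb1, ha1, FKBP70, Hmgb3 and TEF1 higher and XTH lower in low K. tubb1 had adjusted p = 0.0238 from limma in that fit, ha1 adjusted p = 0.038 and Hmgb3, a high-mobility-group chromatin protein, adjusted p = 0.0389 on its brightest probe set. The call of TEF1 came from 1 probe set (0.37 log2; limma, adjusted p = 0.0338) that was not its brightest, which stood at 0.25 log2 with 18 arrays and was not called. After quantile normalization of the same 15 arrays' fit, XTH alone of the 6 was called (-0.90 log2; limma, adjusted p = 0.048). There 69 probe sets were called, 68 of them among the 517. One further gene with a running number appeared in both: LOC543084 read 5589, 3424 and 2880 in low K and 11330, 9902 and 7685 in low Mg (-1.32 ± 0.22 log2; limma, adjusted p = 0.019, and adjusted p = 0.0235 after quantile normalization). With all 18 arrays LOC543084 was not called (SE 0.32 log2, limma, adjusted p = 0.0787). Its control arrays read 5302, 12040 and 3716.

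Many of the largest differences were not called, and a group of them varied from array to array together. Of the tested probe sets 197 were more than 4-fold lower in low K than in low Mg and 15 more than 4-fold higher, and 8 and 1 of these passed the test. Of the 197, 82 (41.6%) correlated above 0.8, as deviations from their group means over the 18 arrays, with the median deviation of the 197, against 0.33% of all tested probe sets. That median was drawn from the 197 themselves, which favours their share, so the 2 percentages are not a test. None of the 82 had a gene in the annotation, which covers only 2.81% of all tested probe sets. Their residual SD had a median of 1.47 log2, against 0.235 over all tested probe sets. The median intensity of the 82 was 37.1, 120 and 15.7 in low K, against 398, 512 and 172 in low Mg. Low K array 3 was the lowest of the 6 and low Mg array 2 the highest. That the groups did not overlap follows largely from choosing probe sets lower in low K. In the other arrays the median intensity ran from 88 to 497 in low N, 486 to 1060 in low P and 241 to 332 in low S. It was 11.1, 255 and 46.3 in the control. The brightest of them read 2151, 4805 and 519.4 in low K and 8558, 14430 and 8800 in low Mg (-2.55 ± 0.91 log2; limma, adjusted p = 0.18). Of the 82, 1 was called with 18 arrays, 30 with the 15 deficiency arrays, 2 with those after quantile normalization and 0 with the 6 arrays compared. These probe sets were chosen by their values and are a description; what they have in common beyond that was not tested.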

How the data were processed

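Total RNA (500 ng) from each of 18 root samples was labelled with biotin and hybridised to an Affymetrix wheat array of its own, per the labels' protocols. The table the authors deposited holds linear intensity values, and Expression Console and MAS5 appear in the submitters' processing notes, with no version used here. All columns were used. Of 61179 wheat probe sets (111 control sets were left out), 34255 reached the median of their array on 3 or more of the 18 arrays and entered the fit, as log2 of the deposited intensity with no constant added. Group means of all 18 arrays were fitted with limma 3.58.1 in R 4.3.3 (lmFit, eBayes with an intensity trend; 12 residual and 4.39 prior degrees of freedom). The contrast was low K minus low Mg, two-sided, with Benjamini-Hochberg adjustment over 34255. The code was tested on simulated data. The number of arrays limits the precision.

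Names came from the platform annotation (771 genes, 770 matched to RefSeq assembly IWGSC CS RefSeq v2.1, used for names alone). Named were called genes with non-overlapping arrays, up to 12 informative and 5 running-number genes per direction, and up to 4 unnamed probe sets per direction averaging at least 200 in the brighter group. Gene lists were matched on symbols and synonyms, with the brightest probe set per gene, and chance matches of letters were removed. Members and lists were chosen with earlier results of these data known. Alternatives changed scaling, filter, constant, arrays, variance model and replicate block. Figures used matplotlib 3.10.9.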

Additional observations from a re-analysis of the deposited data

How the results depend on the processing

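The count of 123 called probe sets (47 higher, 76 lower in low K) moved by more than 1.5 times in many fits. It was 53 after quantile normalization, 1876 after median centring (1779 higher), 33 with no filter on dim probe sets, 40 with only the 6 arrays compared, 517 with the 15 deficiency arrays and 31 with no intensity trend. It stayed within 1.5 times after 75th-percentile centring (100, with 73% higher against 38.2% as deposited), with 16 added before log2 (123), with stricter filters (163 and 151) and with robust eBayes (116). Leaving out 1 array at a time gave 9 to 434. The counts were 338, 41 and 18 without low K arrays 1, 2 and 3, and 9, 13 and 10 without low Mg arrays 1, 2 and 3. They were 151, 434 and 246 without control arrays 1, 2 and 3, which enter through the spread alone. The causes of these changes were not tested. Chosen after seeing the data, quantile normalization gave 34 with the 6 arrays, 69 with the 15 deficiency arrays, 240, 18 and 8 without low K arrays 1, 2 and 3, and 8, 28 and 5 without low Mg arrays 1, 2 and 3. All 123 calls kept their sign under quantile and 75th-percentile scaling. None of the named genes among the 123, the ranked rises or the ranked falls reversed in the planned settings. Some named genes that were not called did change sign, such as rbcl (0.22 log2 as deposited, -0.06 log2 after quantile normalization). Same-numbered replicates of the groups deviated together hardly at all (r of -0.02, 0.02 and 0.06 for numbers 1, 2 and 3). No pairing by number was seen, but this check cannot tell whether the numbers pair the samples in the field design. With replicate number as a block the count was 120, of which 90 were among the 123. Low K against control gave 70 and 49 after quantile normalization, and low Mg against control 21 and 20. Dim probe sets have no detection call, so differences between values of a few units are uncertain.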
